A study of Mus musculus with 8 samples.

Results

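The genes described here are 10 components of the transforming growth factor-β (TGF-β) pathway, taken by name: the ligands Tgfb1 and Tgfb3, the receptors Tgfbr1 and Tgfbr2, the signal carriers Smad2, Smad3 and Smad4, and the inhibitors Smad7, Ski and Skil. They are 10 of the 19938 mouse genes that the arrays measured with a probeset (a group of probes for one transcript) assigned to a single gene. Each member had 1 such probeset, so every value below comes from 1 probeset per array. Naive CD4+ T cells, marked CD25-, CD62Lhigh and CD44low, had been taken from spleen and lymph nodes of C57BL/6 mice, and cultured on antibody to CD3 with soluble antibody to CD28. The 4 groups were Th17 cells lacking Tet2 (Tet2-/-), wild-type Th17 cells, Tet2-/- Th1 cells and wild-type Th1 cells, with 2 arrays each, labelled as biological replicates. The Tet2 protein is a dioxygenase acting on 5-methylcytosine in DNA. Th17 cells, which make interleukin-17, had been induced with 0.5 ng/ml TGF-β1 and 10 ng/ml IL-6 plus antibodies to IFN-γ and IL-4. The protocol also lists IL-23 and IL-1β for some cultures, and whether these Th17 cells received them is not clear. Th1 cells, which make interferon-γ, had been induced with 10 ng/ml IL-12 and 30 U/ml IL-2 plus antibody to IL-4. Every Th17 culture therefore received the ligand of this pathway, and for the Th1 cultures no added TGF-β is listed. The sources used here do not give how Tet2 was deleted, the ages of the mice or any pooling of animals. The p-values set each difference against the spread between these arrays within a group, taken over the 4 groups together and moderated across genes.

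TGF-β is secreted in a latent form. Once released, it binds the type II receptor, which joins and phosphorylates the type I receptor, and this in turn phosphorylates Smad2 and Smad3, which enter the nucleus with Smad4 and act on target genes. Smad7 blocks the receptor, while Ski and SnoN (the product of Skil) repress Smad-driven transcription. In mouse CD4+ T cells TGF-β is known for inducing Foxp3 in regulatory T cells, for inducing the Th17 programme together with IL-6, and for restraining Th1 differentiation.

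Sequence just upstream of the start of transcription was available for 5 of the 10 members, Tgfb1, Tgfbr1, Tgfbr2, Smad3 and Ski. Printed are the 250 bases before the annotated start of the 3 called higher in Th17 than Th1 cells in at least 1 genotype below. They come from RefSeq on GRCm38.p6, 5′ to 3′ on the gene's strand, with the Smad-binding letters CAGAC, or GTCTG on the other strand, in capitals.
Smad3 (chr9:63757995-63758244, minus strand): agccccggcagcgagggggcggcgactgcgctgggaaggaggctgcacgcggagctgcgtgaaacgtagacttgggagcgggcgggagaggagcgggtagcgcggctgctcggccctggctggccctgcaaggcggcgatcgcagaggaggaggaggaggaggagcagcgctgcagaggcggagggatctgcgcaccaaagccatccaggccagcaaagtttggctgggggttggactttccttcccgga
Tgfbr1 (chr4:47352972-47353221, plus strand): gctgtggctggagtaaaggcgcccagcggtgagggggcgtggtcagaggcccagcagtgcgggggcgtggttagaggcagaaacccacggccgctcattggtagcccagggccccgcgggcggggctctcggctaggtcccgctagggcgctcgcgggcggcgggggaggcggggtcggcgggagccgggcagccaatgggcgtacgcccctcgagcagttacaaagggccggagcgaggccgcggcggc
Tgfbr1, other annotated start (chr4:47385966-47386215, plus strand): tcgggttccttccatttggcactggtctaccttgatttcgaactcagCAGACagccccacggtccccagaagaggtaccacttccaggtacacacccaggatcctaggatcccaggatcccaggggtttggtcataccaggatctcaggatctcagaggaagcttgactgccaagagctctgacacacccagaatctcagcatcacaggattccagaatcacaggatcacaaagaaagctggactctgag
Tgfbr2 (chr9:116175364-116175613, minus strand): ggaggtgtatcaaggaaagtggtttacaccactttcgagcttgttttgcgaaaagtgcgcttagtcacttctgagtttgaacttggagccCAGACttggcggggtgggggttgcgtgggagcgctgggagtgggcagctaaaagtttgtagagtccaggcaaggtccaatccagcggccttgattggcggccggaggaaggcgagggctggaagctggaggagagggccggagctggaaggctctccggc
The 4 windows differ in base composition: G and C made up 69.2% of the Smad3 window, 74.8% and 52.8% of the Tgfbr1 windows and 58.4% of the Tgfbr2 window, against a median of 52.4% over all 32851 windows of the same length. The Tgfbr2 window held CAGAC once, at position -160 relative to the start, and the window of the other Tgfbr1 start held it once at -203. The Smad3 window, the upstream Tgfbr1 window and the windows of Tgfb1 and Ski held neither CAGAC nor GTCTG. A copy was thus in 2 of the 6 windows of the members. Across the genome, 42.2% of the windows held at least 1 copy on either strand. The palindrome GTCTAGAC, which contains no CAGAC, was in 0.167% of all windows and in none of the 6 windows of the members. These matches are descriptions of letters and were not linked to binding.

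The arrays were close to one another. Medians of the log2 values lay between 6.47 and 6.53, and correlations across genes were 0.990 to 0.994 within a group, 0.990 to 0.995 between genotypes of a cell type and 0.977 to 0.981 between cell types. The labelled cell types were set against their marks: all 6 measured Th17 marks were called higher in Th17 than in Th1 cells in both genotypes (Il17a by 3.10 log2 units in Tet2-/- and 3.78 in wild-type cells), and 5 of 8 Th1 marks were called lower in each genotype (Ifng by -4.28 and -5.68). Il18r1, also a Th1 mark, was called the other way: higher in Th17 cells of the Tet2-/- genotype, by 0.88 (adjusted p = 0.00566, limma). It read 0.29 higher in the wild type (adjusted p = 0.329, limma). Il18rap read 0.18 higher in Th17 cells of the Tet2-/- genotype (adjusted p = 0.556, limma) and differed by -0.38 in the wild type (adjusted p = 0.174, limma). Cd3e read 11.00 to 11.49 on all arrays and Cd4 10.15 to 10.44. The Tet2 probeset read 8.37 and 8.42 in Tet2-/- Th17 cells, 8.53 and 8.51 in wild-type Th17 cells, 8.12 and 7.97 in Tet2-/- Th1 cells, and 8.14 and 8.03 in wild-type Th1 cells. Where this probeset lies with respect to the deletion is unknown, so it checks nothing about the genotype.

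The Th17 arrays differed from one another in sex-linked RNA. Xist, the RNA of the inactive X chromosome, read 8.62 and 11.3 in Tet2-/- Th17 cells, 5.20 and 10.1 in wild-type Th17 cells, and 4.83 to 5.11 on the 4 Th1 arrays. The mean of 3 Y-linked genes was 8.71 and 4.85 in Tet2-/- Th17 cells, 8.80 and 7.82 in wild-type Th17 cells, and 7.94 to 8.24 in Th1 cells. In each genotype one Th17 array therefore carried more Xist RNA than the other. Results are given below also without the array of highest Y-linked level (wild-type Th17 replicate 1) and the array of lowest level (Tet2-/- Th17 replicate 2). That leaves 1 Th17 array per genotype, with Xist at 8.62 and 10.1, still above the Th1 arrays. Leaving these arrays out therefore does not match the cell types in sex-linked RNA, and the part of sex in the differences was not tested.

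Some of the components were higher in Th17 than in Th1 cells, Smad3 most of all, and none was called lower. Between Th17 and Th1 cells, 4 of the 10 were called higher and none lower in Tet2-/- cells (limma, Benjamini-Hochberg adjusted p under 0.05 over all genes), where 7.14% of all genes were called higher and 3.29% lower, 10.4% in all. In wild-type cells 5 were called higher and none lower, where 5.3% of all genes were called higher and 3.17% lower, 8.47% in all. At an unadjusted p under 0.05 the members numbered 8 in Tet2-/- cells, 7 higher and Tgfb1 lower, and 7 in wild-type cells, all higher, against 24.5% and 24.4% of all genes in either direction. Smad3, Tgfbr2 and Tgfb3 were called in both genotypes, 3 of 10 against 3.67% of all genes. The median Th17 minus Th1 difference of the members was 0.43 log2 units in Tet2-/- cells and 0.47 in wild-type cells, beside -0.01 over all genes in each. The arrays of the cell types did not overlap for all 10 members in Tet2-/- cells, 9 higher and 1 lower in Th17 cells, against 28.8% and 27.6% of all genes. In wild-type cells 9 members did not overlap, all higher in Th17 cells, against 25.2% of all genes higher and 26.7% lower. The members had been chosen with earlier results of these data known, so these counts are descriptions of the list. RNA from whole cultures cannot tell fewer cells with a transcript from less transcript per cell.

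**Figure D1:**
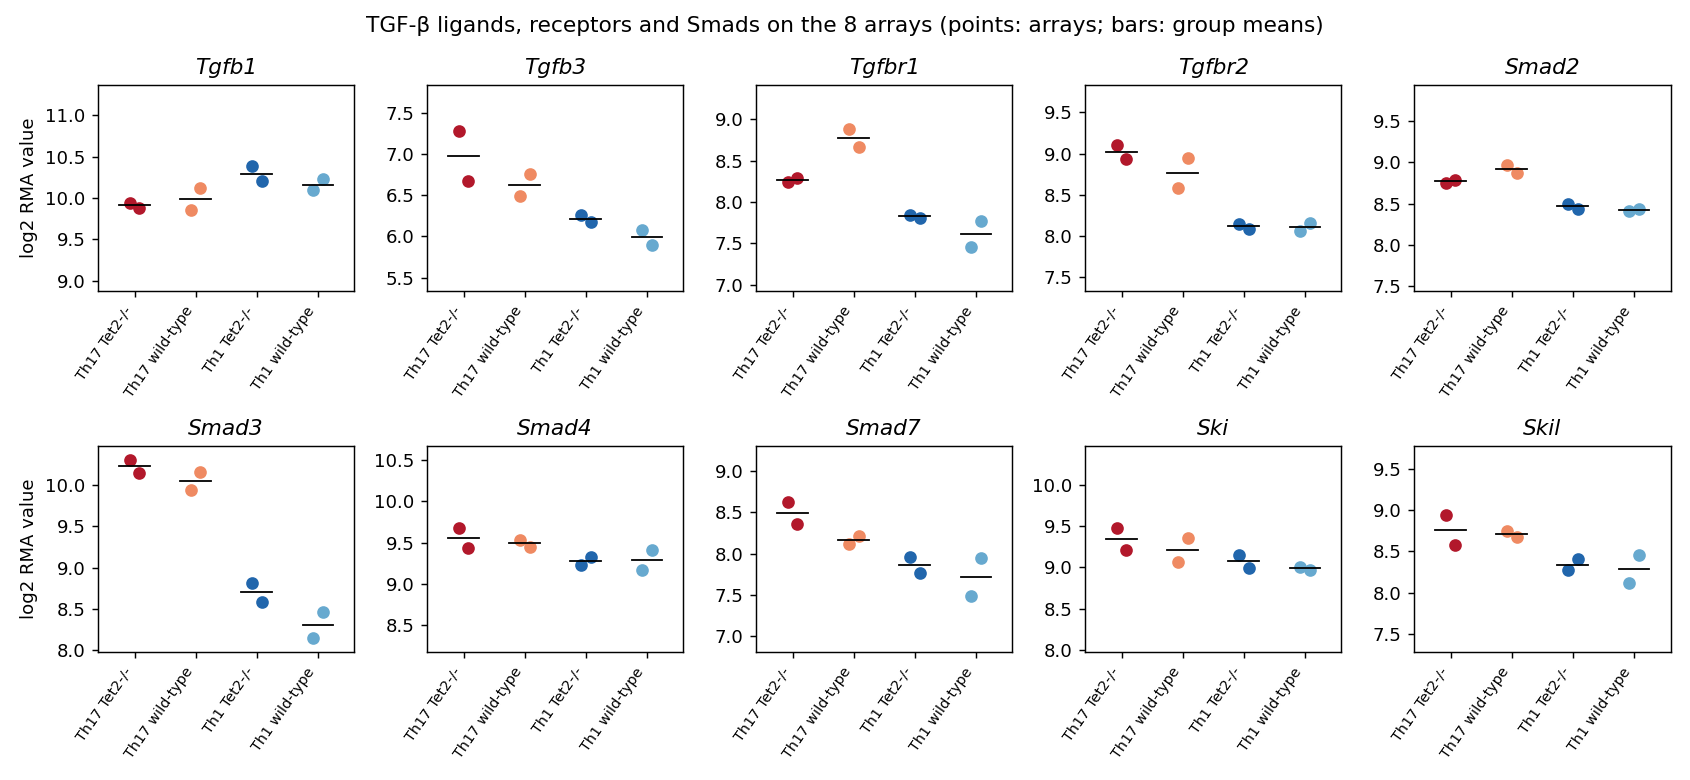
Log2 expression of the 10 components on each of the 8 arrays, with 1 panel per gene on its own axis, groups along the horizontal axis, points for arrays and a bar for the mean of 2. Smad3 lies between 9.93 and 10.31 on the Th17 arrays and between 8.14 and 8.81 on the Th1 arrays, while Tgfb1 spans only 9.85 to 10.39 over all 8.

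Of the ligands, Tgfb3 was higher in Th17 cells and Tgfb1 was not. Tgfb3 encodes TGF-β3, a second isoform that Th17 cells are known to make in mice. It read 7.28 and 6.67 in Tet2-/- Th17 cells, against 6.26 and 6.17 in Tet2-/- Th1 cells. In wild-type cells it read 6.49 and 6.75 in Th17 cells, against 6.08 and 5.89 in Th1 cells. All 4 Th17 arrays lay above all 4 Th1 arrays, although the Th1 readings were below the array medians, where arrays resolve small differences poorly. The difference was 0.76 log2 units in Tet2-/- cells (95% interval 0.39 to 1.13, 1.69-fold, adjusted p = 0.0139, limma) and 0.63 in wild-type cells (0.26 to 1.00, 1.55-fold, adjusted p = 0.0400, limma). The Tet2-/- call rested on few arrays: without Tet2-/- Th17 replicate 1 the difference was 0.46 and the adjusted p 0.152. It also ended without either Tet2-/- Th1 array (adjusted p 0.0632 and 0.0806). The wild-type call ended when any single array of wild-type Th17 or Th1 cells, or either Tet2-/- Th1 array, was left out, with adjusted p between 0.0544 and 0.266. Without the 2 arrays of extreme Y-linked level the difference was 1.06 log2 units in Tet2-/- cells and 0.76 in wild-type cells. The arrays left out, at 6.67 and 6.49, were the lower Th17 array of each genotype, and 1 Th17 array remained in each.

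Tgfb1 encodes TGF-β1, the isoform added to the Th17 cultures and the main isoform of T cells. Its reading was 9.94 and 9.88 in Tet2-/- Th17 cells against 10.39 and 10.20 in Tet2-/- Th1 cells, and 9.85 and 10.12 in wild-type Th17 cells against 10.10 and 10.22 in wild-type Th1 cells. The arrays did not overlap in Tet2-/- cells and overlapped in wild-type cells. Neither difference passed the test, at -0.39 log2 units in Tet2-/- cells (interval -0.68 to -0.10, adjusted p = 0.0904) and -0.18 in wild-type cells (-0.47 to 0.11, adjusted p = 0.455). Tgfb1 was the only member whose mean was lower in Th17 than in Th1 cells in both genotypes. Repeating the quantile normalization took the Tet2-/- difference past the threshold (-0.45, adjusted p = 0.0375).

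Both receptor chains were higher in Th17 cells, with Tgfbr2 called in both genotypes and Tgfbr1 in wild-type cells. Tgfbr2, the type II chain that binds the ligand, read 9.10 and 8.94 in Tet2-/- Th17 cells, against 8.15 and 8.09 in Tet2-/- Th1 cells. In wild-type cells the readings were 8.58 and 8.94 in Th17 cells, against 8.06 and 8.16 in Th1 cells. No Th17 array overlapped a Th1 array. The difference was 0.90 log2 units in Tet2-/- cells (interval 0.60 to 1.20, 1.87-fold, adjusted p = 0.00130, limma), and 0.65 in wild-type cells (0.35 to 0.96, 1.57-fold, adjusted p = 0.0122, limma). The Tet2-/- call held in all 19 alternatives. In wild-type cells the adjusted p was 0.133 without wild-type Th17 replicate 2, at a difference of 0.47, and 0.0672 without wild-type Th1 replicate 1.

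Tgfbr1, the type I chain with the kinase that phosphorylates Smad2 and Smad3, read 8.88 and 8.67 in wild-type Th17 cells, against 7.45 and 7.77 in wild-type Th1 cells. The difference of 1.16 log2 units (interval 0.87 to 1.45, 2.24-fold, adjusted p = 0.000176, limma) was the 164th largest of all genes and held in all 19 alternatives. In Tet2-/- cells Tgfbr1 read 8.24 and 8.29 in Th17 cells, against 7.85 and 7.80 in Th1 cells. There the arrays again did not overlap, but the difference of 0.44 (interval 0.15 to 0.73, 1.36-fold, adjusted p = 0.0555) was just outside the threshold. It passed in 6 of 19 alternatives, with adjusted p down to 0.0271. The 2 intervals do not overlap, and whether the genotypes differ in this step is the interaction reported below.

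Smad3 had the largest difference of the 10 members in both genotypes. Smad3 is the receptor-activated Smad that binds DNA directly, through the letters searched above. It read 10.31 and 10.15 in Tet2-/- Th17 cells, against 8.81 and 8.58 in Tet2-/- Th1 cells. The wild-type readings were 9.93 and 10.16 in Th17 cells, against 8.14 and 8.46 in Th1 cells. The gap between the highest Th1 array and the lowest Th17 array was wider than the spread within any group. The difference was 1.53 log2 units in Tet2-/- cells (interval 1.21 to 1.85, 2.88-fold, adjusted p = 4.15e-05, limma) and 1.75 in wild-type cells (1.43 to 2.07, 3.36-fold, adjusted p = 1.62e-05, limma). These ranked 85 and 56 by absolute size among all genes, and the calls held in all 19 alternatives in each genotype. Without the 2 arrays of extreme Y-linked level they were 1.61 and 1.86.

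Smad2, the other receptor-activated Smad, whose main form does not bind DNA by itself, had a smaller difference. Its readings were 8.75 and 8.79 in Tet2-/- Th17 cells against 8.49 and 8.44 in Tet2-/- Th1 cells, and 8.97 and 8.87 in wild-type Th17 cells against 8.40 and 8.43 in wild-type Th1 cells. The arrays did not overlap in either genotype. The difference passed in wild-type cells, at 0.50 log2 units (interval 0.26 to 0.75, 1.42-fold, adjusted p = 0.0175, limma). In Tet2-/- cells it was 0.31 (0.06 to 0.55, adjusted p = 0.114). The wild-type call ended in 7 of 19 alternatives, among them without wild-type Th17 replicate 1 (adjusted p 0.0918), without wild-type Th17 replicate 2 (0.0657), without wild-type Th1 replicate 1 (0.0635) and without the 2 arrays of extreme Y-linked level (0.159). Smad4, the partner shared by the TGF-β and BMP branches, read 9.68 and 9.43 in Tet2-/- Th17 cells against 9.23 and 9.33 in Tet2-/- Th1 cells, and 9.53 and 9.45 in wild-type Th17 cells against 9.17 and 9.42 in wild-type Th1 cells. Its arrays did not overlap, but the differences of 0.28 (interval -0.02 to 0.57, adjusted p = 0.232) and 0.20 (-0.10 to 0.49, adjusted p = 0.411) did not pass the test.

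**Figure D2:**
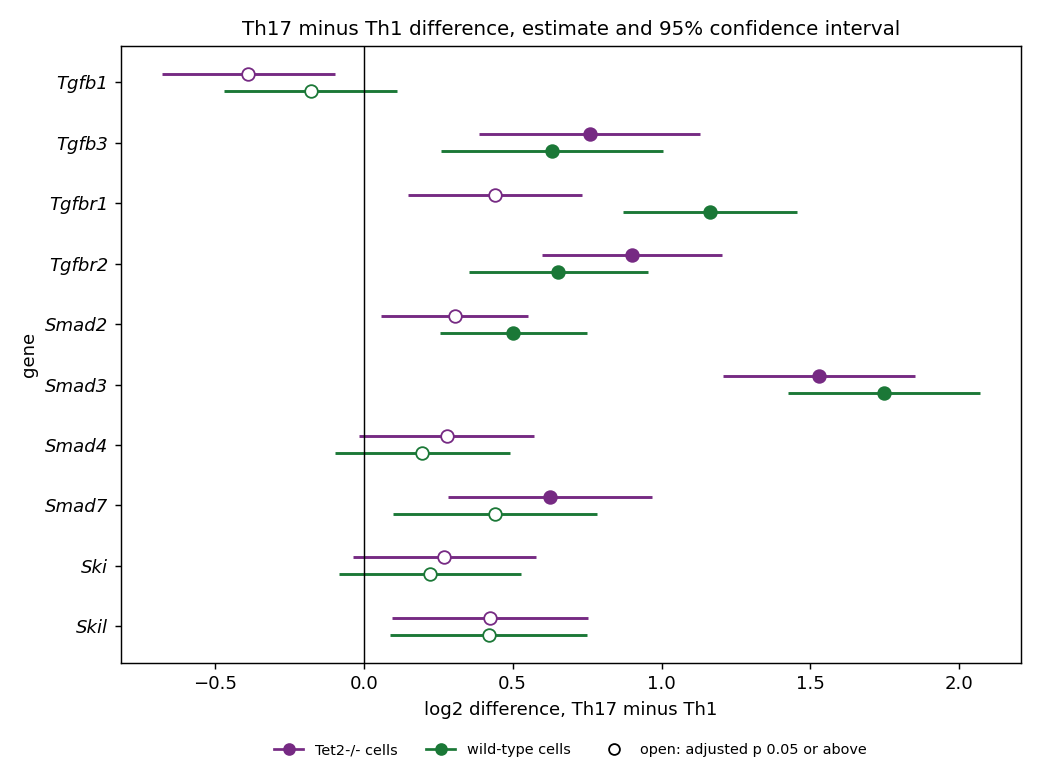
Th17 minus Th1 difference in log2 units for each component with its 95% interval, Tet2-/- and wild-type cells apart and filled points for adjusted p under 0.05. Smad3 lies farthest to the right in both genotypes, and the intervals of Tgfb1 in wild-type cells and of Smad4 and Ski in both genotypes include 0.

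Among the inhibitors, Smad7 was called in Tet2-/- cells, and Ski and Skil in neither genotype. Smad7, which is itself induced by TGF-β and turns the receptor off, read 8.62 and 8.36 in Tet2-/- Th17 cells, against 7.96 and 7.77 in Tet2-/- Th1 cells. In wild-type cells it read 8.11 and 8.21 in Th17 cells, against 7.49 and 7.95 in Th1 cells. Arrays did not overlap within either genotype. The difference was 0.63 log2 units in Tet2-/- cells (interval 0.28 to 0.97, 1.54-fold, adjusted p = 0.0245, limma) and 0.44 in wild-type cells (0.10 to 0.78, adjusted p = 0.107). The Tet2-/- call was lost without Tet2-/- Th17 replicate 1 (0.49, adjusted p = 0.217), without either Tet2-/- Th1 array (adjusted p 0.0618 and 0.146) and without the 2 arrays of extreme Y-linked level (0.76, adjusted p = 0.0644). The wild-type difference depended on the Th1 arrays: it was 0.21 without wild-type Th1 replicate 1 (adjusted p = 0.496) and 0.67 without wild-type Th1 replicate 2 (adjusted p = 0.0280).

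Skil, which encodes the repressor SnoN and is a TGF-β target, read 8.94 and 8.58 in Tet2-/- Th17 cells against 8.27 and 8.41 in Tet2-/- Th1 cells. Its wild-type readings were 8.75 and 8.67 in Th17 cells against 8.12 and 8.46 in Th1 cells. Arrays did not overlap, and the differences of 0.42 in each genotype (intervals 0.09 to 0.75 for both) had adjusted p = 0.101 in Tet2-/- cells and 0.112 in wild-type cells. Ski, the related repressor, read 9.48 and 9.21 in Tet2-/- Th17 cells against 9.15 and 8.99 in Tet2-/- Th1 cells, and 9.07 and 9.35 in wild-type Th17 cells against 9.01 and 8.97 in wild-type Th1 cells. Its differences were 0.27 (adjusted p = 0.267) and 0.22 (adjusted p = 0.368), neither past the test.

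The group means were also put in order. Tgfb3, Tgfbr2, Smad3, Smad7, Ski and Skil, 6 of 10 members, had their means in the order Tet2-/- Th17, wild-type Th17, Tet2-/- Th1 and wild-type Th1, from high to low. The share of all genes with this order was not counted. The step between the genotypes within a cell type was smaller than the step between the cell types within a genotype in each of these members, and did not pass the test in either cell type. Leaving out single arrays turned the genotype step for Tgfbr2, Smad7 and Skil in Th1 cells, and for Ski and Skil in Th17 cells. Tgfbr1 and Smad2 differed in having wild-type Th17 cells highest, and Smad4 in having Tet2-/- Th1 cells lowest. Tgfb1 had its means highest in Tet2-/- Th1 cells and lowest in Tet2-/- Th17 cells.

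Between the genotypes no component passed the test. In Th17 cells none of the 10 was called, and 0% of all genes were, with adjusted p from 0.730 to 0.999. At an unadjusted p under 0.05, 848 genes passed, 4.25% of those tested. Tgfbr1 was the 1 member among them. It read 8.24 and 8.29 in Tet2-/- Th17 cells, against 8.88 and 8.67 in wild-type Th17 cells, without overlap. The difference of -0.51 log2 units (SE 0.134, interval -0.80 to -0.22) had an unadjusted p of 0.00245, rank 63 of 19938, and an adjusted p of 0.730 (limma). It stayed between -0.61 and -0.40 over the 19 alternatives, and was -0.43 without the 2 arrays of extreme Y-linked level. Smad7 was higher by 0.33 without overlap (8.62 and 8.36 in Tet2-/- cells, 8.11 and 8.21 in wild-type cells, unadjusted p = 0.0559), and Tgfb3 by 0.35 with overlap (unadjusted p = 0.0602). Smad2 was lower by 0.15 without overlap, at 8.75 and 8.79 in Tet2-/- cells against 8.97 and 8.87 in wild-type cells (unadjusted p = 0.214). The other 6 differences lay between -0.08 for Tgfb1 and 0.26 for Tgfbr2. Over the members 1 gene was higher and 2 were lower without overlap, while 19.9% and 13.3% of all genes were, and their median difference was 0.10 beside 0.02 for all genes.

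In Th1 cells none of the 10 was called either, with 0.00502% of all genes (1 gene) called and 5.74% at an unadjusted p under 0.05. Smad3 was the 1 member at that level. It read 8.81 and 8.58 in Tet2-/- Th1 cells, against 8.14 and 8.46 in wild-type Th1 cells, a difference of 0.40 log2 units (SE 0.148, interval 0.08 to 0.72, unadjusted p = 0.0192, adjusted p = 0.824, limma). Without single arrays it ranged from 0.24 to 0.55. Tgfb3, Tgfbr1 and Smad2 were also higher without overlap, by 0.23, 0.21 and 0.05, and 18.3% of all genes were higher in that way. No member was lower without overlap, against 14.4% of all genes. The remaining differences ran from -0.02 for Smad4 to 0.15 for Smad7, and the median over the members was 0.11 beside 0.01 for all genes. A difference needed to be about 0.27 log2 units, in the median gene, to reach an unadjusted p of 0.05. Passing the adjusted threshold took more in the genotype contrasts, where few genes or none were called, and Tgfbr1 at -0.51 in Th17 cells did not pass. Between the cell types, Smad2 passed at 0.50 in wild-type cells (adjusted p = 0.0175, limma). With 2 arrays a group, the lack of a call between genotypes does not show that a gene is unchanged.

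**Figure D3:**
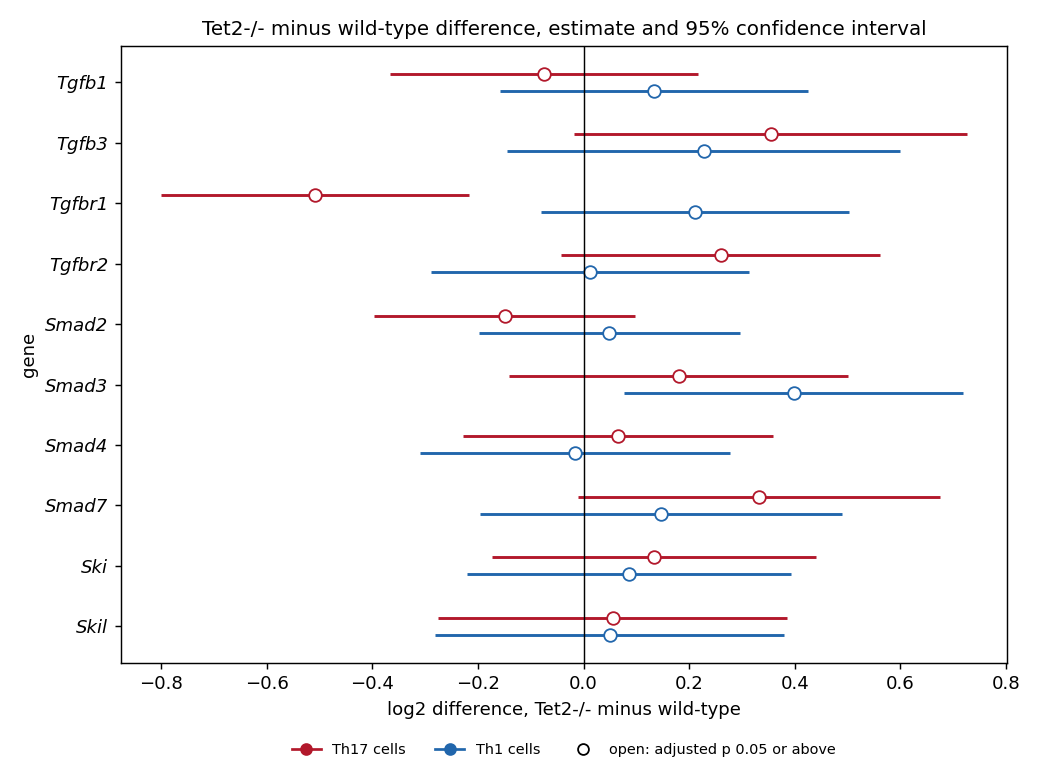
Tet2-/- minus wild-type difference in log2 units for each component with its 95% interval, Th17 and Th1 cells apart, none with adjusted p under 0.05. Tgfbr1 lies at -0.51 in Th17 cells and at 0.21 in Th1 cells, and Smad3 in Th1 cells at 0.40.

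The genotype effect of Tgfbr1 pointed in opposite directions in the cell types, -0.51 in Th17 cells and 0.21 in Th1 cells. The difference between these effects was -0.72 log2 units (SE 0.190, interval -1.13 to -0.31, unadjusted p = 0.00242, rank 44 of 19938), with an adjusted p of 0.999 (limma), so it did not pass the test. The Th1 effect, whose nearest arrays were 7.80 in Tet2-/- and 7.77 in wild-type cells, ranged from 0.05 to 0.37 without single arrays. The difference was -0.64 without the 2 arrays of extreme Y-linked level. Smad2 had effects of opposite direction as well, with a difference of -0.20 (SE 0.161, adjusted p = 0.999). For the other 8 members the difference was at most 0.25 in size. No gene of the array passed this test and 908, or 4.55%, had an unadjusted p under 0.05.

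The genes around these components were sorted by role into 7 lists. Their counts stand beside 7.14% of all genes called higher and 3.29% called lower in Tet2-/- cells, and 5.3% and 3.17% in wild-type cells, with a median difference of -0.01 over all genes in each genotype. Among other receptors and co-receptors, 4 of 13 measured genes were called higher in Th17 than in Th1 cells and none lower, in each genotype, with list medians of 0.07 and 0.08 in Tet2-/- and wild-type cells. Eng (endoglin, a TGF-β co-receptor) was higher by 0.75 log2 units in Tet2-/- cells (adjusted p = 0.00171, limma) and 0.92 in wild-type cells (adjusted p = 0.000482). The Th1 readings of Eng, 5.88 to 6.33, were all under the array medians. Acvr2a, a type II activin receptor, was higher by 0.77 and 0.87, and Tgfbr3, the co-receptor betaglycan, by 0.77 and 0.66. These 3 were called in both genotypes, while the fourth was Bmpr1a in Tet2-/- cells (0.59) and Acvr1b in wild-type cells (0.56). Among other ligands of the superfamily, 1 of 12 was called higher and 1 lower in each genotype, with list medians of -0.04 and -0.05. Inhba, whose product forms activin A, was higher by 1.34 in Tet2-/- cells and 1.03 in wild-type cells (adjusted p = 0.000190 and 0.00154, limma). Bmp2 was lower by -0.72 and -0.93 (adjusted p = 0.0443 and 0.0160), from readings of 4.95 to 5.26 in Th17 cells and 5.34 to 6.20 in Th1 cells, all under the array medians. Tgfb2, the isoform that is no member, read 5.42 and 5.48 on average in Tet2-/- and wild-type Th17 cells and differed by -0.04 and -0.05 between cell types.

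Of 15 measured genes for ligand latency and activation, none was called higher and 2 lower in Tet2-/- cells, and 1 higher and 2 lower in wild-type cells. The list medians were -0.12 and -0.11. Itgav and Itgb8, which together form an integrin that releases active TGF-β, were both lower in Th17 cells. For Itgav the readings were 9.33 and 8.85 in Tet2-/- Th17 cells against 10.03 and 9.76 in Tet2-/- Th1 cells, and 9.13 and 9.18 in wild-type Th17 cells against 10.05 and 10.35 in wild-type Th1 cells. Its difference was -0.81 (adjusted p = 0.00905) and -1.05 (adjusted p = 0.00222), and that of Itgb8 -0.94 (adjusted p = 0.00171) and -0.80 (adjusted p = 0.00630). Lrrc32, which encodes GARP, the surface anchor of latent TGF-β, was higher by 0.83 in wild-type cells (adjusted p = 0.0111) and read 0.58 higher in Tet2-/- cells (adjusted p = 0.0512).

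Inhibitors and ubiquitin ligases held 1 gene of 14 called higher in Tet2-/- cells, 3 in wild-type cells, and none lower, with list medians of 0.15 and 0.16. In Tet2-/- cells that count is near the share of all genes. Wwp1, a ligase that targets Smads and the receptor, was higher by 1.23 in Tet2-/- and 0.97 in wild-type cells (adjusted p = 5.73e-05 and 0.000429, limma). Smurf2 and Smurf1, ligases that Smad7 brings to the receptor, were higher by 0.51 and 0.44 in wild-type cells (adjusted p = 0.0253 and 0.0398). In Tet2-/- cells they read 0.29 and 0.35 higher (adjusted p = 0.179 and 0.0881). Of 11 Smad partners and positive regulators, 1 was called in Tet2-/- cells and 4 in wild-type cells, all higher, with list medians of 0.19 and 0.32. Ep300, a histone acetyltransferase that Smads recruit, was higher by 0.60 and 0.50 (adjusted p = 0.0128 and 0.0369). Tgfbrap1, a receptor-associated protein, was higher by 0.55 in wild-type cells, and Trap1, higher by 0.55 there, encodes a mitochondrial chaperone and does not belong in the list. Without it, 1 of 10 was called in Tet2-/- cells and 3 of 10 in wild-type cells, a count made after the values were seen. None of the 4 other Smads measured (Smad1, Smad5, Smad6 and Smad9) was called, with differences between -0.26 and 0.20 over the genotypes and list medians of 0.04 and -0.07.

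Of 17 measured target genes, 5 were called higher and 1 lower in Tet2-/- cells, and 5 higher and none lower in wild-type cells. Without overlap of arrays, 7 were higher and 5 lower in Th17 cells in each genotype. Of all genes, 28.8% were higher and 27.6% lower in that way in Tet2-/- cells, and 25.2% and 26.7% in wild-type cells. Jun, Junb and Bhlhe40 were among those lower without overlap in both genotypes, and none of these was called. Maf, a transcription factor of Th17 and other helper cells, read 10.62 and 9.83 in Tet2-/- Th17 cells, against 6.51 and 6.91 in Tet2-/- Th1 cells. Its wild-type readings were 10.00 and 10.55 in Th17 cells, against 6.58 and 6.67 in Th1 cells. The difference of 3.52 in Tet2-/- cells and 3.65 in wild-type cells had adjusted p = 2.09e-06 and 1.48e-06 (limma). Ahr, a ligand-activated factor that supports IL-22 production, was higher by 1.86 and 1.66, and Gpr83, a G protein-coupled receptor, by 0.79 and 1.51. Id2 and Klf10, a repressor that TGF-β induces early, were called in both genotypes too. Foxp3, which TGF-β induces without IL-6, differed by -0.10 and 0.05 and was not called, and Ccr8 was lower by -0.64 in Tet2-/- cells (adjusted p = 0.00365), with -0.19 in wild-type cells (adjusted p = 0.335). The list medians of these genes were -0.01 in Tet2-/- cells and 0.06 in wild-type cells.

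**Figure D4:**
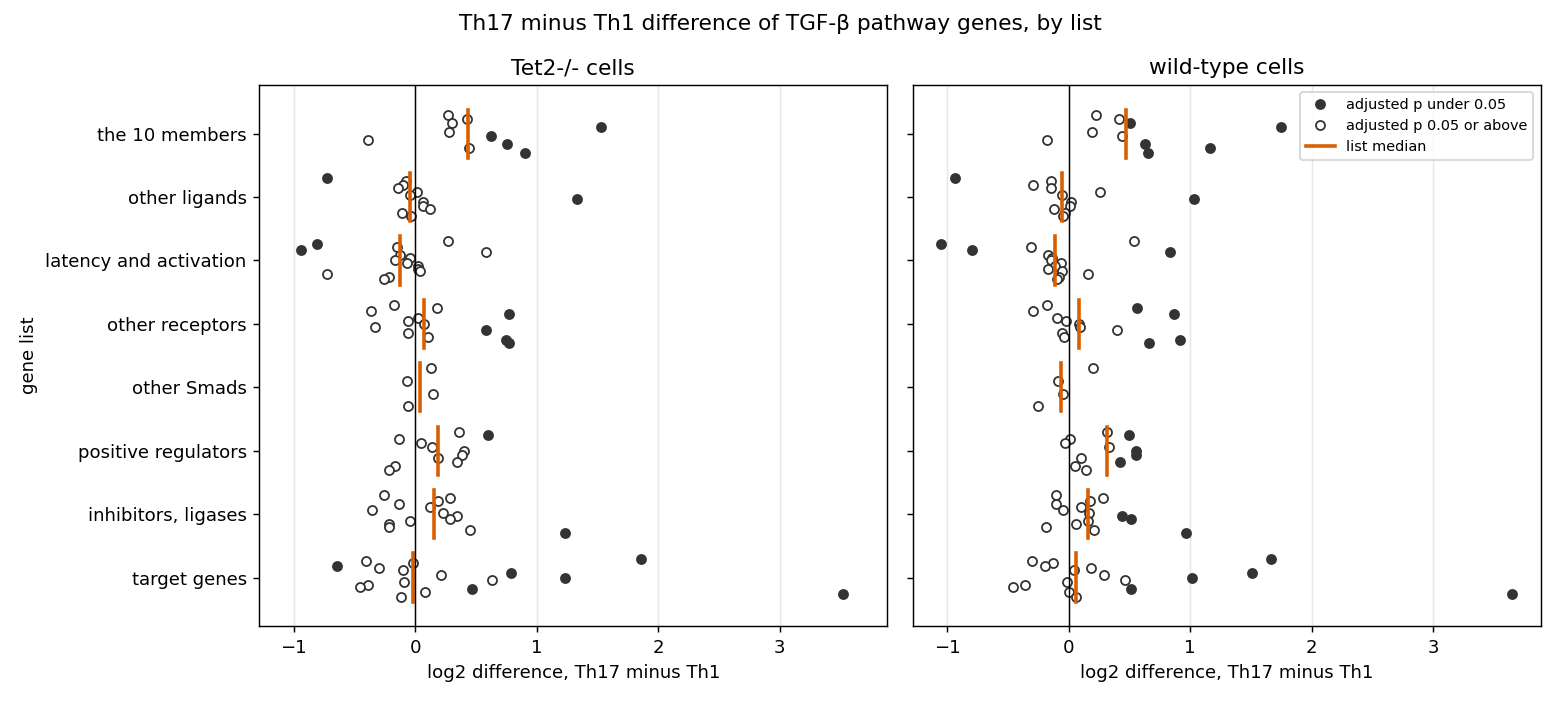
Th17 minus Th1 difference in log2 units for every measured gene of the components and of 7 other pathway lists, Tet2-/- cells on the left and wild-type cells on the right, with filled points for adjusted p under 0.05 and a bar at each list's median. The 10 components, chosen with earlier results of these data known, have the highest list median in both genotypes, 0.43 and 0.47. Maf is the point at 3.52 and 3.65.

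Markers of other cells were read on the same arrays. The summed linear level of 9 stromal and endothelial marks was 1333 to 1359 in Tet2-/- Th17 cells, 1060 to 1138 in wild-type Th17 cells, 1076 to 1126 in Tet2-/- Th1 cells and 946 to 956 in wild-type Th1 cells. Of the 9, 3 were called higher and 1 lower in Th17 cells of the Tet2-/- genotype, and 2 higher and 1 lower in the wild type. Lum read 8.13 and 8.00 in Tet2-/- Th17 cells, 6.98 and 7.10 in wild-type Th17 cells, and 5.07 to 5.41 in Th1 cells. Pecam1, which T cells also express, was called higher in Th17 cells by 1.13 in Tet2-/- and 1.32 in wild-type cells, and Dcn by 1.01 in Tet2-/- cells. Sparc was called lower, by -1.06 in Tet2-/- and -0.75 in wild-type cells. The other 5 marks were not called in either genotype. The collagen gene Col1a1 read 7.28 to 7.40 in Th17 cells and 7.42 to 7.59 in Th1 cells, and Pdgfrb and Cdh5 stayed between 5.75 and 6.09 on all arrays. The part of these marks in the results for Tgfb3, Tgfbr2, Smad3 and Smad7 was not tested. B cell and myeloid marks had no gene called between the cell types. Of 4 NK cell marks only Eomes was called, lower in Th17 cells in both genotypes, and it read 8.17 to 8.26 in Th1 cells. Ncr1, Klrb1c and Klra8 read 3.94 to 5.00 on all arrays.

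For the 3 members called in both genotypes, other genes were ranked by how closely their centred log2 values followed the member over the 8 arrays. The 3 closest to Smad3 were Dnah8, Arntl and Sgk1, with root mean square differences of 0.143, 0.145 and 0.155 log2 units. Closest to Tgfbr2 were Crispld2, Mpp2 and Abca2, at 0.0313, 0.0570 and 0.0634. Those for Tgfb3 were Orai2, Plin2 and Akna, at 0.0808, 0.107 and 0.119. These are descriptions over 8 arrays that share 2 cell types, and say nothing of shared control.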

How the data were processed

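The values were the deposited log2 expression values of 35556 Affymetrix probesets on 8 arrays, made by the authors with RMA in Partek, per the submitters' processing notes, which give no versions. The log2 scale was inferred from the deposited values, which run from 2.71 to 14.1. The platform annotation gave 21789 probesets 1 symbol, 1621 several and 12146 none. The 19938 genes with a single-symbol probeset were tested, each by its probeset of highest mean. Group means were fitted to the 8 arrays together (limma 3.58.1, R 4.3.3), with an intensity trend in the moderated variance (4 residual and 8.44 prior degrees of freedom). P-values were Benjamini-Hochberg adjusted over all genes. Contrasts were Th17 minus Th1 within each genotype, Tet2-/- minus wild-type within each cell type, and the difference of those genotype effects. The model was tested on simulated data. The members and lists were chosen with earlier results of these data known. Every member is named, and of each other pathway list up to 3 called genes of largest difference in wild-type cells, plus the gene of smallest p in each genotype contrast. Foxp3, Tgfb2, Ccr8, Id2, Klf10, Jun, Junb, Bhlhe40, Smad1, Smad5, Bmpr1a, Acvr1b and the cell type marks were named after their values were seen.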

Additional observations from a re-analysis of the deposited data

Results flagged for a closer look

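Tgfbr1 had genotype effects of opposite direction in the cell types with no overlap of arrays: Tet2-/- cells read lower than wild-type cells in Th17 (-0.51 log2 units) and higher in Th1 (0.21). Without single arrays the Th1 effect ranged from 0.05 to 0.37, lowest without wild-type Th1 replicate 1, and its unadjusted p was 0.140. The difference of the effects was -0.72 (SE 0.190), with an adjusted p of 0.999 by limma.

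Smad2 showed the same arrangement at a smaller size, -0.15 in Th17 and 0.05 in Th1 cells. The difference of the effects was -0.20 (SE 0.161), also with an adjusted p of 0.999 by limma.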

How the results depend on the processing

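Over the 19 alternatives, the Th17 minus Th1 calls of Smad3 in both genotypes, Tgfbr1 in wild-type cells and Tgfbr2 in Tet2-/- cells held in every one, and no component was called between the genotypes in any. The single-array results that ended a call stand beside the values above. Testing all probesets, a larger family of tests, ended the wild-type calls of Tgfb3, Tgfbr2 and Smad2 and the Tet2-/- calls of Tgfb3 and Smad7, with adjusted p from 0.0588 to 0.163. Smad2 in wild-type cells was also lost with only the 4 arrays of the contrast (0.0549) and with repeated quantile normalization (0.0561).

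The count of all genes called moved with the settings. In wild-type cells the Th17 minus Th1 count was 1689, against 622 with all probesets tested, 808 without the 2 Th17 arrays of extreme Y-linked level, and 667 to 1560 without single arrays. In Tet2-/- cells it was 2078, against 1064, 975 and 815 to 2383 in the same order. Between genotypes, the count in Th1 cells was 1, and 0 with only the 4 arrays of the contrast, with all probesets or without the 2 arrays, and 0 to 2 without single arrays. In Th17 cells it was 0, 2 with dim genes left out and 0 to 9 without single arrays, and for the difference of the effects 0, and 0 to 4. The cause was not tested.

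Directions turned only for differences that did not pass the test. With repeated quantile normalization, Tgfbr2 in Th1 cells read -0.0015 between genotypes and Skil -0.011 for the difference of the effects. Without single arrays, the genotype difference in Th1 cells ranged from -0.039 to 0.063 for Tgfbr2, -0.14 to 0.11 for Smad4, -0.081 to 0.37 for Smad7 and -0.12 to 0.22 for Skil. In Th17 cells it ranged from -0.21 to 0.059 for Tgfb1, -0.057 to 0.19 for Smad4, -0.0092 to 0.28 for Ski and -0.13 to 0.24 for Skil. The difference of the effects ranged from -0.18 to 0.43 for Tgfb3, -0.041 to 0.20 for Smad4, -0.043 to 0.41 for Smad7, -0.095 to 0.19 for Ski and -0.18 to 0.19 for Skil.

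The arrays share only replicate numbers: correlations of same-numbered deviations were -0.19 to 0.05. With a replicate block the counts were 1810 in Tet2-/- and 1411 in wild-type cells, 1 and 0 between genotypes and 0 for the difference, and it changed no member's call. A crossed block, chosen after seeing the data, gave 1788 in wild-type cells. A lone array left in a group was assumed to vary like the others. The number of arrays limits the precision.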

Other observations

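In the other pathway lists no gene was called between the genotypes in either cell type by limma. The gene of smallest p among the target genes in Th17 cells was Gpr83, which read 7.99 and 7.96 in Tet2-/- Th17 cells against 8.88 and 8.96 in wild-type Th17 cells, a difference of -0.95 log2 units without overlap (adjusted p = 0.0689). In Th1 cells it was Cdkn2b, an inhibitor of the cell cycle, which read 6.41 and 6.56 in Tet2-/- Th1 cells against 6.06 and 6.03 in wild-type Th1 cells, a difference of 0.44 (adjusted p = 0.824). Among the ligands it was Inhba in both cell types, at -0.33 in Th17 cells (adjusted p = 0.999) and -0.64 in Th1 cells (adjusted p = 0.824). For receptors and co-receptors it was Bambi in Th17 cells (-0.33) and Eng in Th1 cells (0.28), and for latency genes Mmp14 (0.15) and Nrp1 (0.56). For Smad partners it was Ep300 in Th17 cells (0.23) and Ywhae in Th1 cells (0.26), for inhibitors Strap (-0.26) and Pmepa1 (0.27), and for other Smads Smad6 (0.21) and Smad9 (-0.07).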
